A study of Hipposideros armiger and Mus musculus with 20 samples.

Results

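The 4 genes described here belong to adrenergic and cyclic AMP (cAMP) signalling in fat: Adrb3, Rgs2, Pde10a and Rap1gap. They were chosen by name with earlier results of these data known, so their p-values are not a fresh test. All 4 had a row among the 14871 rows of the expression table. The study measured mRNA by sequencing in ICR mice and in wild type great roundleaf bats (Hipposideros armiger), kept at 30 °C (warm) or 10 °C (cold) for 7 days. In mouse, 8 libraries covered interscapular brown fat, called iBAT here, and the subcutaneous white depot sWAT, each warm and cold. In the bat, 12 libraries covered the same 2 depots and a white depot inside the abdomen, aWAT. Each of the 10 groups held 1 female and 1 male library, no group carried a transgene or drug in the labels, and the labels do not say whether a library came from 1 animal or a pool. The p-values below therefore measure the spread between these libraries, which includes any difference between the sexes and may in part be technical.

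In fat cells, noradrenaline from sympathetic nerves binds beta-adrenergic receptors, which couple to the stimulatory G protein, raise cAMP through adenylyl cyclase and switch on protein kinase A (PKA) and Epac. PKA drives lipolysis and, in brown and beige fat cells, thermogenesis through the uncoupling protein Ucp1. Adrb3 encodes the beta3-adrenergic receptor, the receptor best known from rodent fat cells. Rgs2 encodes a regulator of G protein signalling that speeds GTP hydrolysis, above all on Gq. Pde10a encodes a phosphodiesterase that breaks down cAMP and cGMP, and Rap1gap encodes a GTPase-activating protein that turns off Rap1, the small G protein that Epac turns on.

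Levels are in FPKM, a count of fragments scaled to transcript length and to the reads in a library, and every value pair below gives the female library first and the male library second. Changes are differences of log2(FPKM + 1) from limma, given as the estimate ± its standard error and taken after subtracting the median over all genes. A pseudocount of 1 makes such changes understate those of low genes. Calls are at an adjusted p under 0.05 (Benjamini-Hochberg over all genes tested, two-sided), and belong to the change before the median was subtracted. Bat libraries were deposited under mouse gene identifiers, so levels were not compared between species.

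Mouse libraries summed to 263338 to 305098 FPKM, and bat libraries to 294103 to 358510. The bat iBAT libraries were the shallowest of the bat set, at a relative depth of 0.624 to 0.738 against at least 0.911 in the white depots, as read from the low values. Several genes that every cell uses lay near 0 in the bat, with a median FPKM of 0 for Actb and Ppia and 0.53 for Eef1a1 and Rplp0. Gapdh was higher, at a median of 7.55. A low bat value was therefore not read as absence. The brown fat marker Ucp1 was high in iBAT of both species. Bat iBAT held 2886 and 2670 FPKM warm, against 3.18 and 2.67 in warm aWAT and 0.41 and 0.57 in warm sWAT, and mouse iBAT held 192 and 49.9 warm against 1.19 and 1.53 in warm sWAT. Of the 20 libraries, 8 correlated more with a library of another group than with their own group mate, among them both mouse sWAT cold, both bat sWAT warm and both bat aWAT warm libraries. In the cold mouse sWAT pair, lymphocyte markers summed to 230 FPKM in the female and 3.33 in the male library, and skeletal muscle markers to 22.3 and 1777. In bulk tissue, fewer cells of a type and less RNA per cell cannot be told apart.

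The receptor Adrb3 (ENSMUSG00000031489, minus strand of mouse chromosome 8, 27225776 to 27250616 in GRCm38) passed the test for a cold change in none of the 5 depots, and its lowest bat values stood in sWAT. In mouse iBAT it was at 44.5 and 43.0 FPKM warm and 47.1 and 32.2 cold. In mouse sWAT it was at 50.3 and 95.8 FPKM warm and 39.1 and 68.8 cold. The 4 mouse groups overlapped with their neighbours in the order of means, from sWAT warm (73.0 ± 32.2, SD, n = 2) through sWAT cold and iBAT warm to iBAT cold (39.7 ± 10.5). The relative cold change was 0.13 ± 0.38 in mouse iBAT (95% interval -0.78 to 1.05, adjusted p = 0.809 by limma) and -0.05 ± 0.38 in mouse sWAT (-0.96 to 0.86, adjusted p = 0.419). Across all genes, limma called 14.1% of 10689 in mouse iBAT and 33.9% in mouse sWAT in either direction.

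In the bat, Adrb3 lay at 44.7 and 33.4 FPKM in warm iBAT and at 31.5 and 27.5 in cold iBAT. In aWAT it was at 37.5 and 17.8 FPKM warm and at 46.2 and 36.8 cold. In sWAT it was at 33.2 and 6.38 FPKM warm and at 2.38 and 5.52 cold, so both cold sWAT libraries were below every other bat library. On the log2 scale the warm sWAT pair differed more within itself than any other pair of libraries did for this gene. The relative change was -0.28 ± 0.61 in iBAT (adjusted p = 0.773 by limma), 0.79 ± 0.61 in aWAT (adjusted p = 0.489) and -1.83 ± 0.61 in sWAT (adjusted p = 0.334, interval -3.20 to -0.46). Of these 5 cold comparisons 1, bat sWAT, had an unadjusted p under 0.05, as did 10.5% of all genes there. The shares of all genes called were 2.2% in bat iBAT, 1.02% in bat sWAT and 15.3% in bat aWAT. The sWAT change rested on the warm pair: it was -2.90 without the warm male library (adjusted p = 0.0275 by limma) and -0.74 without the warm female library (adjusted p = 0.836). Skeletal muscle markers moved with the sWAT groups, summing over 9 measured genes to 14.6 and 3.36 FPKM warm and to 315 and 599 cold, with 8 of the 9 called higher and Ckm at 0 in a warm library. Fat cell markers summed to 5117 and 8002 FPKM in warm and 7493 and 6649 in cold bat sWAT, with none of 5 listed at 0. The part of either in the Adrb3 values was not tested.

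Between bat depots, Adrb3 was higher in cold iBAT than in cold sWAT by 2.96 ± 0.61 on the log2 scale (adjusted p = 0.00674 by limma), a comparison in which 13.2% of all genes were called higher. It was higher in cold aWAT than in cold sWAT by 3.27 ± 0.61 (adjusted p = 0.00577), where 10.4% of all genes were called higher. Leaving out the cold female library of sWAT took the first to an adjusted p of 0.0539, and leaving out the cold female library of aWAT took the second to 0.0525. In the warm, iBAT and sWAT differed by 1.39 ± 0.61 (adjusted p = 0.151 by limma), by 2.45 (adjusted p = 0.00877) without the warm female sWAT library and by 0.32 (adjusted p = 0.796) without the warm male sWAT library. The cold change of Adrb3 was not shown to differ between bat sWAT and either other bat depot. It was 1.55 ± 0.87 for iBAT less sWAT (adjusted p = 0.551 by limma) and 2.60 ± 0.87 for aWAT less sWAT (adjusted p = 0.153). In level, the 2 mouse depots differed by -0.08 ± 0.38 warm (adjusted p = 0.175) and 0.06 ± 0.38 cold (adjusted p = 0.423).

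**Figure D1:**
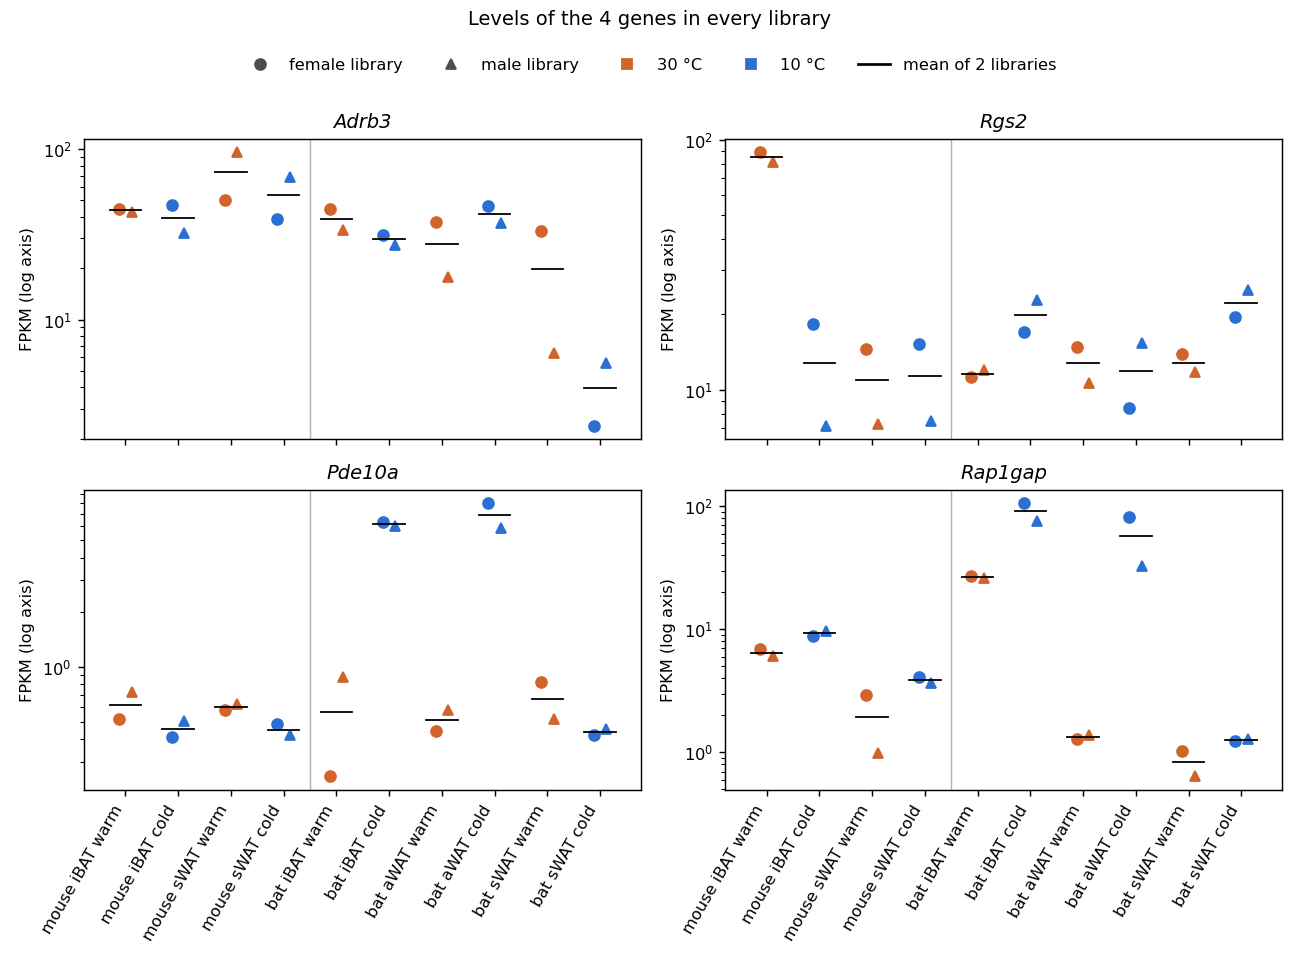
Level of Adrb3, Rgs2, Pde10a and Rap1gap (FPKM, log axis) in every library, by group, with circles for female and triangles for male libraries and a line at the mean of the 2 libraries. Among mouse groups Rgs2 stands highest in warm iBAT (89.0 and 81.8 FPKM), and among bat groups Pde10a stands highest in cold iBAT and aWAT and Adrb3 lowest in cold sWAT.

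Of the other adrenergic receptors, 6 are described beside Adrb3. Adrb1, the beta1 receptor, rose with cold in mouse sWAT and fell in bat iBAT. In mouse sWAT it went from 0.76 and 0.69 to 2.53 and 3.21 FPKM (1.53, adjusted p = 0.0126 by limma), and in bat iBAT from 8.55 and 13.5 to 4.66 and 3.08 FPKM (-1.19, adjusted p = 0.0349). The bat call was lost with median-ratio scaling (adjusted p = 0.0515) and quantile normalization (adjusted p = 0.0665). In mouse iBAT the values were 5.15 and 4.05 FPKM warm and 7.94 and 7.26 cold (0.92, adjusted p = 0.0636). The bat change less the mouse change was -2.13 in iBAT (adjusted p = 0.00567 by limma, where 4.86% of genes were called), -1.69 in sWAT (adjusted p = 0.017, where 21.2% of genes were called) and, for bat aWAT against mouse sWAT, -2.05 (adjusted p = 0.00541).

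Among the alpha receptors, Adra1a rose most in cold bat aWAT, from 2.52 and 2.16 to 23.6 and 16.1 FPKM (2.76, adjusted p = 0.000686 by limma), while warm bat iBAT already held 21.4 and 14.7 FPKM and cold bat iBAT 17.5 and 11.6. Its cold change in aWAT exceeded that in sWAT by 2.59 (adjusted p = 0.0131), and the iBAT change less the aWAT change was -2.93 (adjusted p = 0.0239). In mouse sWAT, Adra1a went from 0.93 and 0.67 to 2.10 and 5.50 FPKM (1.68, adjusted p = 0.0347, and 0.0516 with median-ratio scaling). Adra1d in mouse iBAT went from 12.4 and 14.5 to 4.44 and 3.94 FPKM (-1.18, adjusted p = 0.0352), a call lost with median-ratio scaling (adjusted p = 0.101) and quantile normalization (adjusted p = 0.196). Adra2a, an alpha2 receptor that couples to the inhibitory G protein, was at 2.23 and 2.21 FPKM in warm and 11.1 and 4.63 in cold bat sWAT, against 2.08 and 1.32 in warm and 0.28 and 0.62 in cold bat aWAT, and the aWAT change less the sWAT change was -2.06 (adjusted p = 0.0266 by limma). Adra1b in mouse and Adra2c in both species stayed at or under 0.88 FPKM in every library and were not tested. Bat Adra1b lay between 4.08 and 8.35 FPKM, with no cold call in 3 depots (adjusted p from 0.225 to 0.769).

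**Figure D2:**
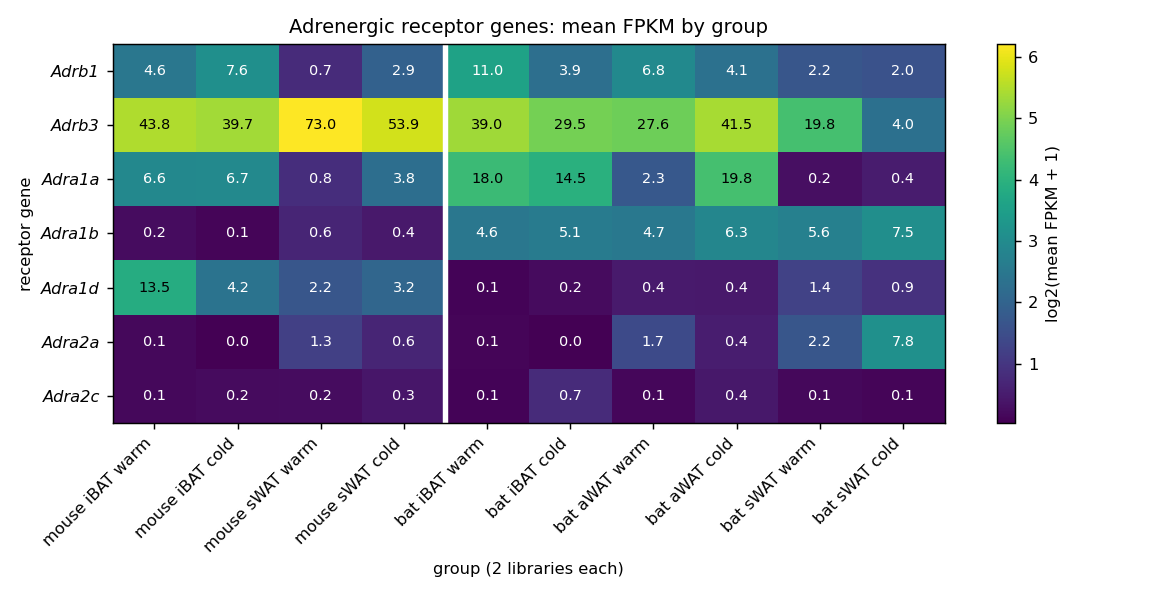
Mean level of 7 adrenergic receptor genes (rows) in the 10 groups of 2 libraries (columns), with the mean FPKM printed in each cell and the colour on a log2(mean FPKM + 1) scale. Adrb3 has the highest mean of the 7 in every group except bat sWAT cold, where Adra2a (7.8) and Adra1b (7.5) stand above its 4.0.

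Rgs2 (ENSMUSG00000026360, minus strand of mouse chromosome 1, 143999338 to 144004161 in GRCm38) fell with cold in mouse iBAT, from 89.0 and 81.8 FPKM to 18.3 and 7.18, and passed the test in none of the other 4 depots. Warm mouse iBAT stood apart from the other 6 mouse libraries, which lay between 7.18 and 18.3 FPKM and overlapped between sWAT warm (14.5 and 7.29), sWAT cold (15.2 and 7.52) and iBAT cold. The ratio of the means, warm over cold, was 6.69. The relative change was -2.48 ± 0.51 (interval -3.69 to -1.27, adjusted p = 0.0219 by limma), in a comparison where 11.2% of all genes were called lower. Rgs2 was called under each of the 6 other settings of scaling, pseudocount, filter, spread and sex, but under none of the 4 fits that left out a library of this comparison (changes from -3.08 to -1.89, adjusted p from 0.072 to 0.136). Those 4 fits called only 1 to 3 genes in all. Muscle markers moved with the groups, summing over 9 measured genes to 2089 and 1690 FPKM warm and 25.4 and 980 cold (0 of 9 called). So did the 7 fibroblast and progenitor markers, at 212 and 202 FPKM warm and 74.7 and 73.6 cold (4 of 7 called lower), the 6 macrophage markers, at 32.1 and 24.8 warm and 12.6 and 12.2 cold (3 of 6 called lower), and the 7 endothelial markers, at 249.6 and 218 warm and 153 and 139.6 cold (1 of 7 called lower). Relative to all genes, the median change was -3.70 for muscle, -0.47 for fibroblast and progenitor, -0.41 for macrophage and only -0.11 for endothelial markers. None of these markers was listed at 0 in a mouse iBAT library, and their part in the Rgs2 change was not tested.

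The difference of Rgs2 between the mouse depots in the warm was 3.50 ± 0.51 higher in iBAT (adjusted p = 0.00421 by limma, with 10.7% of all genes called higher), and after cold it was 0.56 ± 0.51 (adjusted p = 0.891). In mouse sWAT the cold change was 0.42 ± 0.51 (adjusted p = 0.941). The iBAT change less the sWAT change was -2.88 ± 0.72 and was not called (adjusted p = 0.128), so the cold response of the 2 mouse depots was not shown to differ. In that test limma called 0.0936% of all genes.

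The 12 bat libraries held Rgs2 between 8.43 and 25.0 FPKM, with no cold call. Bat iBAT was at 11.2 and 12.0 FPKM warm and 17.1 and 22.8 cold (0.82 ± 0.28, adjusted p = 0.198 by limma). Bat sWAT was at 13.9 and 11.7 FPKM warm and 19.5 and 25.0 cold (0.68 ± 0.28, adjusted p = 0.375). Bat aWAT was at 14.8 and 10.6 FPKM warm and 8.43 and 15.3 cold (0.01 ± 0.28, adjusted p = 0.785). The bat iBAT and sWAT comparisons had unadjusted p-values of 0.0267 and 0.0225 by limma, where 19.5% and 10.5% of all genes had an unadjusted p under 0.05. The cold change of iBAT was higher in bat than in mouse by 3.29 ± 0.58 (adjusted p = 0.00567, with 3.76% of all genes called higher). In cold bats, Rgs2 was lower in aWAT than in sWAT by -0.80 ± 0.28 on the log2 scale (adjusted p = 0.0435 by limma, with 11.5% of all genes called lower). This call was lost without the filter on low values and without the female sWAT, the male sWAT or the female aWAT library. In the same comparison 9 of 9 skeletal muscle, 5 of 6 macrophage and 4 of 7 fibroblast and progenitor markers were called lower. Called higher were 1 of those 7, 4 of 7 brown fat and 5 of 5 mesothelium markers. The part of these markers in the Rgs2 difference was not tested.

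The other RGS genes encode regulators of the same family, which do not all act on the same G proteins. In cold mouse iBAT limma called none of the 10 tested, beside 14.1% of all genes, and 2 had an unadjusted p under 0.05, beside 33.6%. In cold mouse sWAT it called 3 higher and 4 lower of 10, beside 7.06% and 26.8% of all genes. The lower ones named by size were Rgs14, a regulator of Gi signalling (20.2 and 16.7 to 5.94 and 1.00 FPKM, -2.01), and Rgs1, known from B lymphocytes (9.56 and 6.97 to 2.12 and 0.30 FPKM, -1.82). Lymphocyte markers fell beside them, from sums of 625 and 589 FPKM to 230 and 3.33 over 7 measured genes, 2 of them called lower and none listed at 0, and their part was not tested. With median-ratio scaling the mouse sWAT counts were 3 higher and 3 lower. In cold bat aWAT 1 of 9 was called higher and 4 lower, beside 8.66% and 6.67% of all genes, and in cold bat iBAT 1 higher and 1 lower, beside 1.22% and 0.98%. Rgs7, best known from neurons, was the higher one in both, from 0.37 and 1.00 to 6.55 and 5.92 FPKM in iBAT (2.22, adjusted p = 0.0406 by limma) and by 2.30 in aWAT (adjusted p = 0.0107). Rgs3 was the lower one in iBAT, from 37.3 and 30.3 to 12.5 and 8.45 FPKM (-1.51, adjusted p = 0.0419, 0.065 with median-ratio scaling and 0.0779 with quantile normalization). Rgs10, which acts on Gi, was the largest fall in aWAT, from 8.54 and 5.98 to 1.61 and 1.91 FPKM (-1.43, adjusted p = 0.00225).

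Pde10a (ENSMUSG00000023868, plus strand of mouse chromosome 17, 8525372 to 8986648 in GRCm38) rose with cold in bat iBAT and bat aWAT and was low in the other bat libraries. It went from 0.25 and 0.88 FPKM to 6.31 and 5.96 in bat iBAT and from 0.44 and 0.58 to 7.99 and 5.80 in bat aWAT. All 4 of these cold libraries were above 5 FPKM, and the other 8 bat libraries were under 1, with sWAT at 0.82 and 0.52 warm and 0.42 and 0.46 cold. The ratio of the means, cold over warm, was 10.8 in iBAT and 13.5 in aWAT. Those 4 cold libraries are also the only ones at 1 FPKM or more, so Pde10a passed the filter on low values through the groups where it is high. On the log2(FPKM + 1) scale the rise was 2.32 ± 0.24 in iBAT (adjusted p = 0.00531 by limma, with 1.22% of all genes called higher) and 2.51 ± 0.24 in aWAT (adjusted p = 0.000503, with 8.66% called higher). With no filter the rises were 2.25 (adjusted p = 0.00965) and 2.44 (adjusted p = 0.00131). The sWAT change was -0.28 ± 0.24 (adjusted p = 0.822, interval -0.81 to 0.26). Without the cold male iBAT library the iBAT change was 2.36, with an adjusted p of 0.0692.

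The depots differed in this response of Pde10a. The cold change in aWAT exceeded that in sWAT by 2.77 ± 0.34 (adjusted p = 0.00391 by limma, with 2.68% of all genes called higher), and that in iBAT exceeded sWAT by 2.59 ± 0.34 (adjusted p = 0.00902, with 0.0454% called higher). The second call was lost with a pseudocount of 0.1 (adjusted p = 0.057) and without the warm female, cold female or cold male sWAT library or the cold female iBAT library, where the adjusted p ranged from 0.0514 to 0.127. The change in iBAT less that in aWAT was -0.17 ± 0.34 (interval -0.93 to 0.59, adjusted p = 0.943). In cold bats Pde10a was higher than in sWAT by 2.57 ± 0.24 in iBAT (adjusted p = 8.97e-05 by limma) and by 2.54 ± 0.24 in aWAT (adjusted p = 0.000144), and in warm bats no pair of depots was called for it (unadjusted p from 0.577 to 0.928). Between warm aWAT and warm sWAT limma called 0.889% of all genes.

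In mouse, Pde10a lay between 0.41 and 0.73 FPKM in all 8 libraries. It did not pass the filter of 1 FPKM in 2 libraries, so it was not tested. The gene model spans several overlapping genes on the other strand, the pseudogenes Gm15425 and Gm15426 and the gene Gm17087, and the strand of counting is not given in the sources used here. None of these 3 had a row in the table.

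Among the other phosphodiesterase genes, limma called 2 higher and 0 lower of 13 tested in cold bat aWAT, beside 8.66% and 6.67% of all genes. They were Pde4c (0.95, adjusted p = 0.0168) and Pde7a (0.86, adjusted p = 0.0377), both cAMP-specific enzymes, chosen for naming after their values were seen. In bat iBAT none of 13 was called, beside 2.2% of all genes, and 5 had an unadjusted p under 0.05, beside 19.5%. In mouse sWAT 3 were called higher (Pde4a, 1.13, Pde4d, 1.17, and Pde8a, 0.97) and 3 lower (Pde1b, -1.04, Pde4b, -0.86, and Pde7a, -0.61) of 10, also named after their values were seen, beside 7.06% and 26.8% of all genes. With median-ratio scaling the mouse sWAT counts were 3 higher and 1 lower, and with quantile normalization 3 and 2. In mouse iBAT 1 of 10 was called lower, beside 11.2% of all genes (Pde1b, -0.53, adjusted p = 0.0359 by limma, also named after its value was seen). With median-ratio scaling 1 was called higher and 0 lower there, and with quantile normalization none was called. Pde1b, which calcium and calmodulin switch on, was lower in bat iBAT than in bat aWAT in the warm, at 4.55 and 5.26 against 27.0 and 32.4 FPKM (-2.22, adjusted p = 0.000443 by limma).

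**Figure D3:**
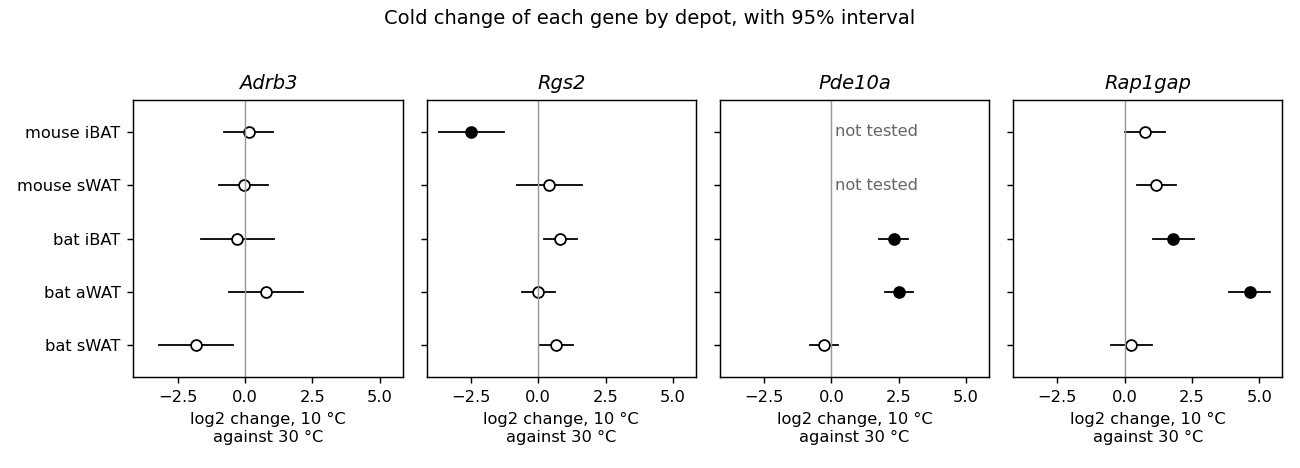
Change of each gene at 10 °C against 30 °C (log2 of FPKM + 1, relative to the median of all genes, x axis) in the 5 depots (y axis), with 95% intervals and filled points where limma called the change. Filled points stand at -2.48 for Rgs2 in mouse iBAT, at 2.32 and 2.51 for Pde10a and at 1.81 and 4.64 for Rap1gap in bat iBAT and aWAT, and no Adrb3 point is filled.

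Rap1gap (ENSMUSG00000041351, plus strand of mouse chromosome 4, 137664726 to 137729861 in GRCm38) showed the largest change of the 4 genes, in cold bat aWAT. There it went from 1.30 and 1.38 FPKM to 81.4 and 33.1, a ratio of means of 42.8. The relative change was 4.64 ± 0.34 (interval 3.87 to 5.41, adjusted p = 0.000149 by limma) and was called under all 6 other settings and without each of the 4 libraries. In bat iBAT it was already at 27.4 and 26.3 FPKM warm and rose to 106 and 76.5 cold, a ratio of means of 3.40 (1.81 ± 0.34, adjusted p = 0.0392). This call was lost with quantile normalization (adjusted p = 0.0551), without the filter on low values (adjusted p = 0.0606) and without any 1 of the 4 libraries (adjusted p from 0.122 to 0.186). In bat sWAT it stayed between 0.64 and 1.29 FPKM, at 1.03 and 0.64 warm and 1.25 and 1.29 cold (0.24 ± 0.34, adjusted p = 0.813). The antisense gene Rap1gapos overlaps Rap1gap, and Gm45470 overlaps Adrb3, so without the strand of counting their reads cannot be told apart from those of the 2 genes.

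The cold change of Rap1gap in bat aWAT exceeded that in bat sWAT by 4.38 ± 0.49 (adjusted p = 0.00206 by limma). The change in iBAT less that in aWAT was -2.81 ± 0.49, just short of a call (adjusted p = 0.0535), and it was called with quantile normalization, with a pseudocount of 0.1 and with sex as a replicate block (-2.81, adjusted p = 0.0359), and without the cold male aWAT library (-3.53, adjusted p = 0.0075). In that test 0.336% of all genes were called in either direction. The iBAT change less the sWAT change was 1.56 ± 0.49 (adjusted p = 0.326).

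Among bat depots in the warm, Rap1gap separated iBAT from both white depots, by 4.00 ± 0.34 against sWAT (adjusted p = 8.12e-05 by limma, with 11% of all genes called higher) and by 3.73 ± 0.34 against aWAT (adjusted p = 0.000228, with 7.66% called higher). After cold it was higher than in sWAT by 5.59 ± 0.34 in iBAT (adjusted p = 9.39e-06) and by 4.65 ± 0.34 in aWAT (adjusted p = 3.49e-05). Cold iBAT and cold aWAT overlapped, and the difference of 0.93 ± 0.34 was not called (adjusted p = 0.395), with 1.65 (adjusted p = 0.0274) without the cold female aWAT library and 0.21 (adjusted p = 1) without the cold male aWAT library. In that comparison limma called 0.816% of all genes.

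Mouse Rap1gap was also higher in iBAT than in sWAT, without overlap, at both temperatures. Mouse iBAT held 6.91 and 6.06 FPKM warm and 8.81 and 9.72 cold, and mouse sWAT 2.91 and 0.99 warm and 4.13 and 3.69 cold. The depot difference was 1.99 ± 0.31 warm (adjusted p = 0.00847 by limma) and 1.53 ± 0.31 cold (adjusted p = 0.0418, with 2.32% of all genes called higher). The second was lost with a pseudocount of 0.1 (adjusted p = 0.0647), without the filter on low values (adjusted p = 0.065) and without any 1 of its 4 libraries. The cold change was not called, at 0.75 ± 0.31 in iBAT (adjusted p = 0.338 by limma) and 1.18 ± 0.31 in sWAT (adjusted p = 0.0787). The sWAT change was called with median-ratio scaling (1.05, adjusted p = 0.0394) and quantile normalization (1.26, adjusted p = 0.021). The cold change in bat aWAT exceeded that in mouse sWAT by 3.43 ± 0.49 (adjusted p = 0.000986 by limma, with 8.2% of all genes called higher), while the bat less the mouse change in iBAT was 1.04 ± 0.49 (adjusted p = 0.162).

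Of 7 other genes of the Epac and Rap1 module tested in the bat, limma called none with cold in iBAT, sWAT or aWAT, beside 2.2%, 1.02% and 15.3% of all genes. The genes of Rap1 itself, Rap1a and Rap1b, had no row in the expression table and were not tested. Rap2a, Rap2b, Sipa1 and Rasip1 had no row either. Of the 7, 0, 1 and 2 had an unadjusted p under 0.05, beside 19.5%, 10.5% and 32.3% of all genes. In mouse sWAT 2 of 9 were called lower, near the 26.8% of all genes called lower there, among them Rapgef4, which encodes the cAMP sensor Epac2 (7.73 and 6.26 to 1.61 and 0.52 FPKM, -1.63, adjusted p = 0.0114).

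Set beside Ucp1, Rap1gap and Pde10a parted in warm bat iBAT. Bat Ucp1 was at 2886 and 2670 FPKM in warm iBAT, 10405 and 7239 in cold iBAT, 7184 and 2939 in cold aWAT and at most 3.18 in the other 6 libraries. Rap1gap split the libraries the same way, with 26.3 FPKM or more in the 6 libraries with Ucp1 at 2670 FPKM or above and at most 1.38 in the other 6. Pde10a was above 5 FPKM in the 4 cold ones of those 6 libraries, and its 0.25 and 0.88 FPKM in warm iBAT stood beside 0.42 to 0.82 in the 6 libraries low in Ucp1. Beside the aWAT change, endothelial markers went from sums of 213 and 171 to 85.6 and 134 FPKM (3 of 7 called lower, none listed at 0). Pericyte and smooth muscle markers went from 98.9 and 126 to 54.7 and 72.1 FPKM (2 of 6 called lower, none listed at 0), and nerve and Schwann cell markers from 75.2 and 62.6 to 10.7 and 19.7 (1 of 6 tested called lower, with Th listed at 0). Brown fat markers went from 442 and 1027 to 9694 and 5483 FPKM (5 of 7 called higher), with Prdm16 at 0 in a warm library. Also called lower in aWAT were 1 of 5 mesothelium and 1 of 7 fibroblast and progenitor markers, and 0 of 6 macrophage markers. Of all genes, 8.66% were called higher and 6.67% lower in aWAT. In bat iBAT, brown fat markers went from 5621 and 4843 to 12859 and 9774 FPKM (1 of 7 called higher), and nerve and Schwann cell markers from 33.9 and 56.8 to 15.9 and 15.6 (1 of 6 tested called lower). Of all genes, 1.22% were called higher and 0.98% lower in bat iBAT. The part of these markers in the changes was not tested.

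**Figure D4:**
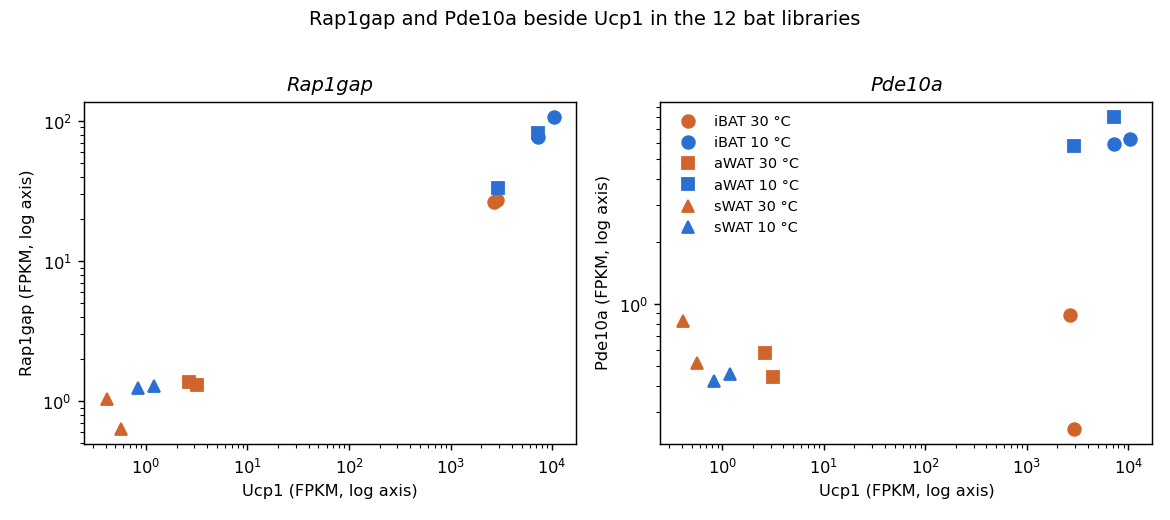
Level of Rap1gap (left) and Pde10a (right) against Ucp1 in the 12 bat libraries, all in FPKM on log axes, with a symbol for each depot and orange for 30 °C and blue for 10 °C. The warm iBAT libraries lie with the cold iBAT and aWAT libraries for Rap1gap (26.3 and 27.4 FPKM) but with the low libraries for Pde10a (0.25 and 0.88 FPKM).

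The list of the wider cAMP pathway named 136 other genes, of which 97 were tested in mouse and 93 in the bat. The rest did not pass the filter or had no row in the expression table. Among those without a row were Adcy3, Gnai2, Creb1, Ep300, Rap1a and Rap1b. In cold mouse sWAT 20 were called higher and 22 lower by limma, beside 7.06% and 26.8% of all genes, and the 3 largest rises were Ucp1 (1.19 and 1.53 to 1229 and 2977 FPKM, 10.04), the lipid droplet protein Plin5 (1.18 and 3.18 to 22.1 and 51.4 FPKM, 3.89) and Dio2, which activates thyroid hormone (0.18 and 0.18 to 4.35 and 6.82 FPKM, 2.82). With median-ratio scaling the counts were 20 and 10, and with quantile normalization 19 and 13. In cold mouse iBAT 5 were called higher and 7 lower, beside 2.84% and 11.2% of all genes, with Ucp1 (192 and 49.9 to 3688 and 5119 FPKM, 5.75), Dio2 (0.43 and 0.26 to 9.90 and 7.05 FPKM, 3.10) and G0s2, an inhibitor of the lipase Atgl (50.6 and 38.8 to 460 and 147 FPKM, 2.82, and not called with quantile normalization), as the largest rises. The falls in mouse iBAT named by size included Hcar1, the Gi-coupled lactate receptor (-1.42), and Nr4a1, an early cAMP target (-1.21), and both calls were lost with median-ratio scaling and quantile normalization, which gave 9 higher and 1 lower, and 4 higher and 1 lower.

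In cold bat aWAT 10 pathway genes were called higher and 8 lower of 93, beside 8.66% and 6.67% of all genes. Besides Ucp1 (10.33) and Adra1a, the rises included Ppargc1a, a coactivator of mitochondrial genes (5.35 and 5.23 to 21.8 and 47.9 FPKM, 2.55, adjusted p = 0.0196 by limma), and the falls Hcar2, the Gi-coupled niacin receptor (34.3 and 19.7 to 4.76 and 13.9 FPKM, -1.41, adjusted p = 0.0338). In cold bat iBAT 2 were called higher (Rgs7, and Ucp1 by 1.75 with an adjusted p of 0.0449, and 0.0944 with quantile normalization) and 2 lower (Rgs3 and Adrb1), beside 1.22% and 0.98% of all genes. In cold bat sWAT none of 93 was called, beside 1.02% of all genes, and 15 had an unadjusted p under 0.05, beside 10.5%. At most 1 was called under another setting. Leaving out any 1 of the 4 libraries compared cut the calls over all genes in cold mouse iBAT and cold bat iBAT. In cold mouse sWAT and cold bat aWAT the pathway counts, 42 and 18 with all libraries, moved with the library left out. So did the calls over all genes. Pathway counts of such fits were therefore not read as a trait of the pathway genes. The median change of the pathway genes relative to all genes was 0.04 in mouse iBAT, 0.15 in mouse sWAT, -0.18 in bat iBAT, 0.06 in bat sWAT and -0.09 in bat aWAT.

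**Figure D5:**
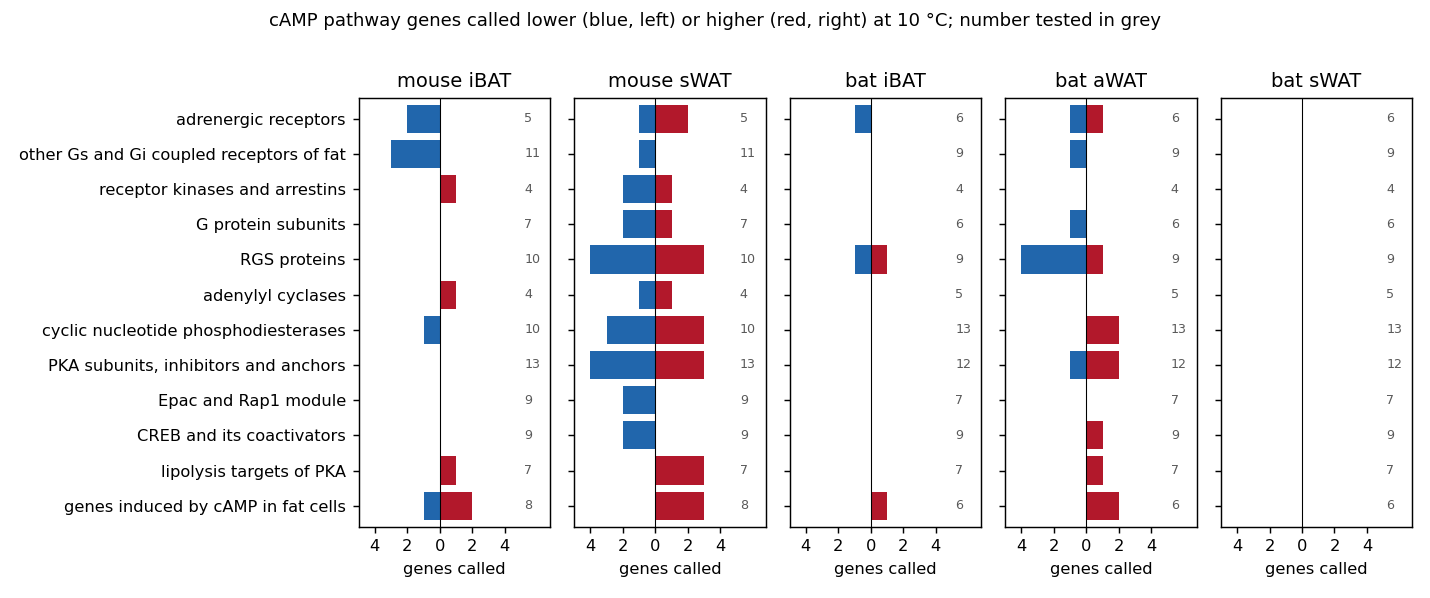
Number of cAMP pathway genes called lower (blue, left) or higher (red, right) at 10 °C in each depot, by group of genes, with the number tested in grey. RGS genes hold the most calls in bat aWAT (1 higher and 4 lower of 9), and bat sWAT has no bar.

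Genes whose pattern over libraries was most like each of the 4 are given by Pearson's r of log2(FPKM + 1), as a description, since the libraries fall into groups of depot and temperature. Over the 8 mouse libraries and 7837 genes compared, Adrb3 was most like Vps35 (0.918), Mrgprg (0.913) and Dctn3 (0.913), Rgs2 most like Paics (0.971), Abhd4 (0.969) and Gpx3 (0.969), and Rap1gap most like Myo5c (0.981), Sec14l4 (0.971) and Tmem246 (0.970). Over the 12 bat libraries and 7332 genes, Rap1gap was most like Iars2 (0.996), Gk (0.994) and Timm44 (0.993), and Pde10a most like Ccdc96 (0.971), Sapcd2 (0.957) and Tomm40 (0.950). Bat Adrb3 was most like Hus1 (0.937), Bfar (0.932) and Fam149a (0.924), and bat Rgs2, with the lowest r of the 7 searches, most like Abcg1 (0.837), Srl (0.791) and Dok2 (0.776). Among the 4 genes themselves, r was 0.81 for Rap1gap with Pde10a and 0.62 for Rap1gap with Adrb3 in the bat, and -0.83 for Rap1gap with Adrb3 in mouse.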

How the data were processed

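Fat from mouse and bat was profiled by RNA sequencing. Per the labels' protocols, RNA was isolated with a kit for lipid-rich tissue, and the submitters' processing notes name CASAVA 1.8. The deposited table gives FPKM for 14871 genes in 20 libraries. The sources used here do not give the aligner, counter, strand setting or build, nor how bat reads were assigned to mouse genes. Of the identifiers, 14723 matched a symbol and 148 did not. Positions are from the GENCODE annotation of GRCm38, and no position in the bat genome was used.

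Values were taken as log2(FPKM + 1). A gene was tested where 2 or more libraries of its species held 1 FPKM or more, which left 10689 genes in mouse, 11025 in bat and 9400 in both. limma 3.58.1 (R 4.3.3) was fitted to group means over all libraries of a species, or of both for differences between species, with an intensity trend. Coefficients are printed less the median of all genes, since this median reached -0.57 (mouse depots, warm) and moved by over 0.1 with scaling. Groups of 2 are too small for a permutation test. The fit was tested on simulated data. Totals of reads were unknown, so no counting interval was computed. Alternatives were median-ratio and quantile scaling, a pseudocount of 0.1, no filter, no trend, sex as a replicate block, and each library left out.

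The 4 genes, the pathway and marker lists and the tests were chosen with earlier results of these data known. Pathway genes named are the up to 3 largest rises and falls of each cold comparison, and up to 2 of each warm depot comparison, where limma called them, both sexes agreed and a group mean was 5 FPKM or more. Adrenergic receptors are added. A gene of the lists is not reported here by name, and the counts include it. Of the warm depot genes, most are not described. Like genes are the 3 with the highest r.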

Additional observations from a re-analysis of the deposited data

Results flagged for a closer look

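Of 24 differences between cold changes tested for the 4 genes, 5 passed the test of the difference itself (limma, adjusted p under 0.05). Each is a difference between depots or between species. Among all genes, limma called 0.0454% higher for bat iBAT less bat sWAT and 2.68% for bat aWAT less bat sWAT. It called 8.2% higher for bat aWAT less mouse sWAT and 3.76% for iBAT, bat less mouse. For Pde10a, the change in bat iBAT less that in bat sWAT was 2.59, with an adjusted p of 0.00902, and 0.057 with a pseudocount of 0.1. The sWAT change itself was not called (adjusted p = 0.822). Pde10a passed the filter on low values only through cold iBAT and cold aWAT, the groups where it is high. For Pde10a in bat aWAT less bat sWAT the difference was 2.77 (adjusted p = 0.00391). For Rap1gap in bat aWAT less bat sWAT it was 4.38 (adjusted p = 0.00206). For Rap1gap in bat aWAT less mouse sWAT it was 3.43 (adjusted p = 0.000986). For Rgs2 in iBAT, bat less mouse, it was 3.29 (adjusted p = 0.00567), where the bat change itself was not called (adjusted p = 0.198). The comparisons of a species share libraries, and both Pde10a differences use the same sWAT libraries.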

How the results depend on the processing

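No member changed direction where it was called under a setting. Each group held 2 libraries, which limits every test: without 1 library, the lone sample was assumed to vary like the other groups, and fewer samples carry the test. Calls over all genes also moved with the library left out, so the pathway counts of those fits are no trait of the pathway genes. Scaling moved the split of all calls: mouse iBAT cold gave 304 higher and 1202 lower, and 693 and 398 with median-ratio scaling, mouse sWAT cold 755 and 2867 against 1186 and 707, and bat iBAT cold 135 and 108 against 179 and 67. No other cause was tested.

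Among members, the Rap1gap change in cold mouse sWAT became called with median-ratio scaling (1.05) and quantile normalization (1.26). Rap1gap lost its call in mouse iBAT against sWAT cold with a pseudocount of 0.1 (1.84) and no filter (1.39), and in bat iBAT cold with quantile normalization (1.55) and no filter (1.74). Rgs2 in bat aWAT against sWAT cold lost it with no filter (-0.85).

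Pathway counts moved by over 1.5 times as follows. Quantile normalization gave 5 for mouse iBAT cold (12 in the report), 15 for mouse iBAT against sWAT cold (30), 1 for bat iBAT cold (4), 0 for bat iBAT against aWAT cold (1) and 2 for bat aWAT against sWAT warm (1). A pseudocount of 0.1 gave 2, 2 and 2 for the last 3 of these. No filter gave 1 for bat iBAT cold and 1 for bat sWAT cold (0). Median-ratio scaling gave 1 for bat sWAT cold and 0 for bat aWAT against sWAT warm, and no intensity trend gave 1 and 2.

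Of differences between cold changes, the count of members called for bat iBAT less sWAT was 0 with a pseudocount of 0.1 (1 in the report). For bat iBAT less aWAT it was 1 with quantile normalization, with a pseudocount of 0.1 and with sex as a replicate block (0). With no filter it was 2 for iBAT, bat less mouse (1), and 2 for bat aWAT less mouse sWAT (1). The replicate block, with female and male libraries as its levels, changed no other call of a member. The labels give no replicate numbers, so no pairing was assumed.

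Without 1 library each, the pathway counts ranged from 0 to 0 for mouse iBAT cold, 3 to 55 for mouse sWAT cold, 36 to 49 for mouse iBAT against sWAT warm (55) and 3 to 50 cold, 0 to 0 for bat iBAT cold, 0 to 1 for bat sWAT cold, 5 to 14 for bat aWAT cold, 8 to 18 for bat iBAT against aWAT warm (20) and 0 to 4 cold, 0 to 0 for bat aWAT against sWAT warm and 13 to 26 cold (26). The count of members called ranged from 0 to 1 for bat iBAT less sWAT, bat iBAT less aWAT and sWAT, bat less mouse. Member changes whose call moved ranged from -3.08 to -1.89 (Rgs2, mouse iBAT cold), 1.44 to 1.63 (Rap1gap, mouse iBAT against sWAT cold), 2.00 to 2.62 (Pde10a, bat iBAT cold), 1.56 to 2.05 (Rap1gap, bat iBAT cold), -2.90 to -0.74 (Adrb3, bat sWAT cold), 0.32 to 2.45 and 2.48 to 3.40 (Adrb3, bat iBAT against sWAT warm and cold), 0.21 to 1.65 (Rap1gap, bat iBAT against aWAT cold), 2.80 to 3.72 (Adrb3, bat aWAT against sWAT cold) and -1.10 to -0.49 (Rgs2, the same).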
